A study of Homo sapiens with 6 samples.

Results

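The tryptase genes *TPSAB1*, *TPSB2* and *TPSD1* were higher in dormant MDA-MB-231 cells (GFP+CV+) from the brain than in proliferating ones (GFP+CV-), whereas *LTC4S* was detected only in the 3 proliferating libraries of the 6 analysed. These 4 genes were taken by their symbols from a deposited table of 1161 genes, all of which the authors had called different between the same libraries. The genes were thus chosen by their normalized read counts in these libraries, and the difference between the populations is described here without a test. MDA-MB-231 is a human triple negative breast cancer cell line. GFP-tagged cells were labelled with CellVue Claret (CV), a dye that is lost through division, and injected into the internal carotid artery of female C.B-17 SCID mice, 6 to 8 weeks old, which lack functional T and B lymphocytes. At day 28, cells that kept the dye (GFP+CV+, labelled cell cycle-inactive and called dormant here) and cells that had lost it (GFP+CV-, proliferating) were sorted from brains pooled from 10 mice in replicates 1 and 2 and from 9 mice in replicate 3. Each population gave 3 libraries, and a dormant and a proliferating library with equal numbers are from 1 pool. All cells thus came from 1 cell line with the same tag and dye, grown in the same mouse strain.

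Tryptases are trypsin-like serine proteases stored in the granules of mast cells, the tissue cells of allergic inflammation, and are the most widely used markers of these cells. *TPSAB1* encodes alpha and beta tryptases, *TPSB2* encodes a beta tryptase, and *TPSD1* encodes delta tryptase, a shorter form. Released tryptase can cleave and activate the receptor PAR2, which is encoded by *F2RL1*. *LTC4S* encodes leukotriene C4 synthase, the enzyme that joins glutathione to leukotriene A4 to make the first of the cysteinyl leukotrienes, and it is known from mast cells, eosinophils and macrophages.

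The tryptase genes lie side by side on the short arm of chromosome 16, and their sequences bear on every value below. In the annotation of GENCODE release 44 on GRCh38, *TPSB2* (ENSG00000197253) runs on the minus strand from 1227272 to 1230184. *TPSAB1* (ENSG00000172236) runs on the plus strand from 1240379 to 1242554, which leaves 10194 bases between the genes. *TPSD1* (ENSG00000095917) runs on the plus strand from 1256059 to 1259008, a further 13504 bases away. All 3 are protein-coding genes. Over their coding sequences, *TPSAB1* and *TPSB2* were identical at 821 of 825 aligned bases (99.5%), and *TPSD1* was identical to either of them at 627 of 705 (88.9%). Of the stretches of 75 bases in the *TPSAB1* transcript, 65.0% also occurred in a transcript of another human gene, and 65.1% did for *TPSB2*. Mouse transcripts were not searched. The share was 11.3% for *TPSD1* and 0% for *LTC4S*. A read of that length from most of the *TPSAB1* or *TPSB2* transcript would thus match another gene as well; the read length of these libraries is not given in the sources used here.

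**Figure D1:**
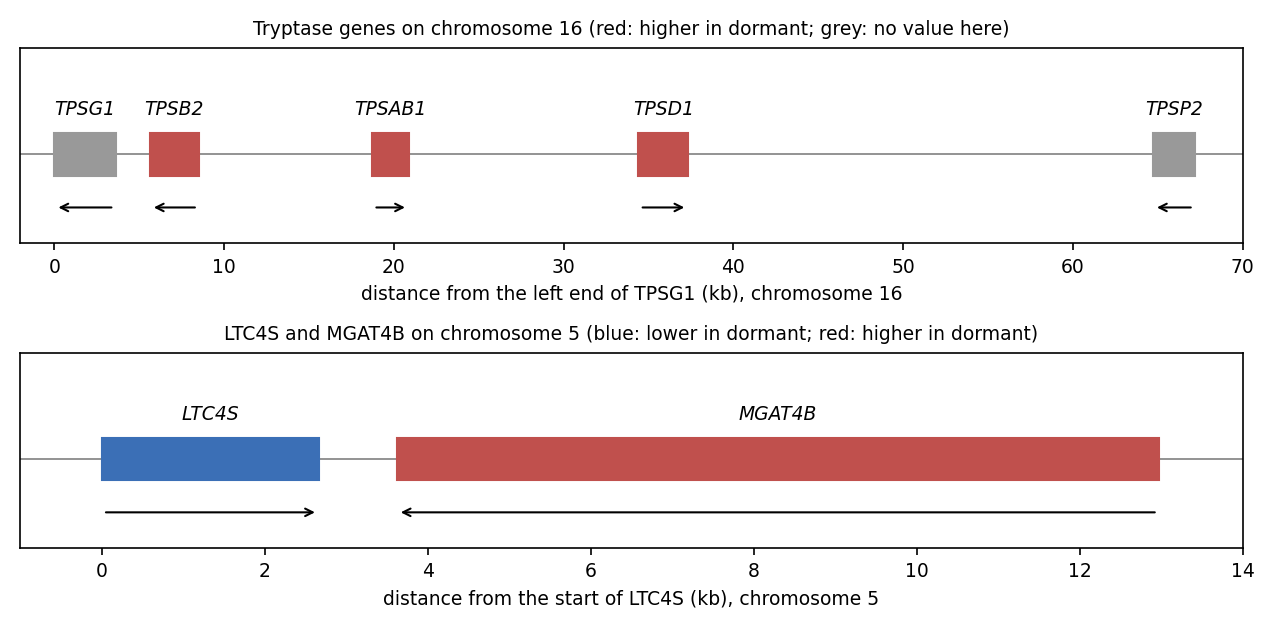
The upper map shows the tryptase genes by their distance in kb from the left end of *TPSG1* on chromosome 16, and the lower map shows *LTC4S* and *MGAT4B* by their distance in kb from the start of *LTC4S* on chromosome 5. Boxes are genes to scale and arrows point in the direction of transcription, with red for genes higher in dormant cells, blue for *LTC4S* and grey for genes with no value here. The 3 tryptase genes follow each other with gaps of 10194 and 13504 bases, and *LTC4S* and *MGAT4B* end 949 bases apart.

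A stretch of 120 bases from coding exon 2 shows how closely the 3 genes agree, with capitals at the 5 positions where they are not all the same. This is the 120-base window of equal-length coding exons with the fewest such positions. Here *TPSB2* and *TPSD1* each differ from *TPSAB1* at 3 positions.
*TPSAB1* (chr16:1241194-1241313, plus strand): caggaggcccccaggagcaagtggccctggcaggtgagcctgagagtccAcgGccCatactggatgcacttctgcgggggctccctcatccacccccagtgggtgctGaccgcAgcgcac
*TPSB2* (chr16:1229577-1229696, minus strand): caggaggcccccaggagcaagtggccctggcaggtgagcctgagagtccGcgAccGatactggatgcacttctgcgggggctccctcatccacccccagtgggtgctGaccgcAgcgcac
*TPSD1* (chr16:1256557-1256676, plus strand): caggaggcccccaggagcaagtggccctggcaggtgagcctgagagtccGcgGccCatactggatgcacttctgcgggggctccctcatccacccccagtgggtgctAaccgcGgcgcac

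A stretch of the same length from coding exon 3 has the most such positions, 10, again in capitals, and shows where reads of *TPSD1* can be told from the rest. In this window *TPSAB1* and *TPSB2* are the same at every base, and *TPSD1* differs from both at all 10 positions.
*TPSAB1* (chr16:1241519-1241638, plus strand): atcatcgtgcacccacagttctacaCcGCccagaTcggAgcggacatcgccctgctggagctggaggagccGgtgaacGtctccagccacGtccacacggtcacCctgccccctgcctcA
*TPSB2* (chr16:1229252-1229371, minus strand): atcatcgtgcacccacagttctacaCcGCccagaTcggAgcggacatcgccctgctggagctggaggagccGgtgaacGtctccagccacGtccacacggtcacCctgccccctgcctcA
*TPSD1* (chr16:1256882-1257001, plus strand): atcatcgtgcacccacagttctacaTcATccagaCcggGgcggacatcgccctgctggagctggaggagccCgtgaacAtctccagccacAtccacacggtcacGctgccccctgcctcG

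*LTC4S* (ENSG00000213316) codes for protein and lies on chromosome 5, plus strand, from 179793980 to 179796647 in GRCh38, with 5 exons and a transcript of 801 bases. As given above, no stretch of 75 bases of it occurred in the transcripts of another human gene.

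The normalized read count is the estimated count of a gene, rounded and divided by the size factor of its library, as deposited. For *TPSAB1* it was 0, 0 and 1.63 in proliferating replicates 1, 2 and 3, and 52.3, 24.0 and 290.1 in dormant replicates 1, 2 and 3. For *TPSB2* it was 0, 0 and 8.13 in proliferating cells, and 115.1, 56.6 and 681.0 in dormant cells. For *TPSD1* it was 0, 0 and 3.25 in proliferating cells, and 39.9, 27.8 and 192.0 in dormant cells. All 3 genes thus had the same order of libraries, with dormant replicate 3 highest, dormant replicate 2 lowest of the dormant libraries, and proliferating replicate 3 the only proliferating library above 0. For each of the 3 tryptase genes every dormant library was above every proliferating one, as for 49.0% of the 1161 listed genes, and for *LTC4S* every dormant library was below, as for 50.2%. Counted in either direction, 99.2% of the listed genes separated the populations, and nothing is read from the separation of these 4.

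Summed over the 3 genes, the tryptase level was 207.3, 108.5 and 1163 in the dormant libraries, with a mean of 493.0 ± 582.5 (SD, n = 3) in normalized read counts. The proliferating mean was 4.33 ± 7.51 (SD, n = 3), all of it from replicate 3 with 13.0. The ratio of these means was 114, a log2 ratio of 6.83. Without dormant replicate 3, which held 78.6% of the summed dormant level, the ratio was 36.4, and without proliferating replicate 1 or 2 it was 75.8. Without proliferating replicate 3, the proliferating cells had no tryptase counts, and the dormant level was at least 379-fold higher, taking 3 counts over the group as the limit that a count of 0 allows. In pools 1 and 2 alone, the dormant level was at least 121-fold higher by the same limit. In pool 3, where both populations had tryptase counts, the ratio was 89.4, with a 95% exact conditional interval of 54.8 to 157 for counting error only.

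The counts behind these levels were small, and whether a count stands for a read or a read pair is not stated. If both reads of a pair were counted, the intervals given here would be too narrow. The limits of 3 counts would then be too low, and the fold bounds built on them too high. After rounding, the 3 dormant libraries held 218, 113 and 842 tryptase counts, and proliferating replicate 3 held 16. Pooled over the libraries of each population and divided by their summed size factors, the 1173 dormant against 16 proliferating counts gave a ratio of 92.1 (95% interval 56.4 to 162). For *TPSAB1* this ratio was 182 (interval 49.9 to 1511) and rested on 2 proliferating counts. For *TPSB2* it was 84.5 (45.7 to 177) on 10 counts, and for *TPSD1* it was 65.9 (25.4 to 244) on 4 counts. The intervals of the 3 genes overlap, but the genes were measured in the same libraries, and a difference between their ratios was not tested. A count of 0 in proliferating replicates 1 and 2 allows a normalized read count of up to 2.17 and 3.23, respectively, for each gene.

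**Figure D2:**
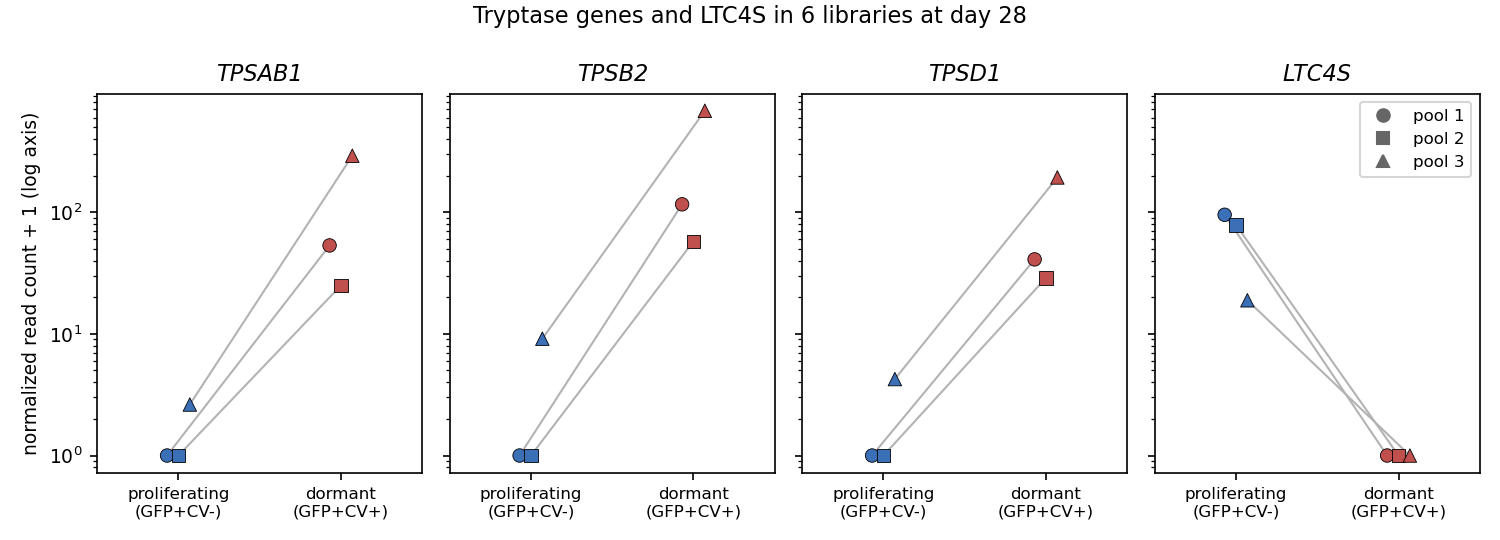
Each panel plots 1 gene, with the normalized read count plus 1 on a log axis and the proliferating (blue) and dormant (red) libraries side by side; symbols mark the pool and grey lines join libraries of the same pool. The tryptase genes were at 0 in proliferating pools 1 and 2 and highest in dormant pool 3, whereas *LTC4S* was at 0 in every dormant library and lowest of the proliferating libraries in pool 3.

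The spread among the dormant libraries was wide for all 3 genes. From the lowest to the highest dormant library, the normalized read count differed 12.1-fold for *TPSAB1*, 12.02-fold for *TPSB2* and 6.90-fold for *TPSD1*. Dormant replicate 3 held 79.2%, 79.9% and 73.9% of the dormant sum of these genes, respectively. Across the 576 listed genes that were higher in dormant cells, the median share of this library was 40.99%, and 7 of them had a larger share than the 78.6% of the summed tryptases. Dormant replicate 3 also had the smallest size factor, 0.724 against 1.04 and 1.05. The part of this library in the spread beyond these values was not tested.

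The division of the tryptase counts among the 3 genes was not used to choose them. In dormant replicates 1, 2 and 3, *TPSB2* took 55.5% (95% Wilson interval 48.9 to 61.9), 52.2% (43.1 to 61.2) and 58.6% (55.2 to 61.8) of the tryptase counts. *TPSAB1* took 25.2%, 22.1% and 24.9%, and *TPSD1* took 19.3%, 25.7% and 16.5%. Over the dormant libraries the shares were 55.4 ± 3.2% for *TPSB2*, 24.1 ± 1.7% for *TPSAB1* and 20.5 ± 4.7% for *TPSD1* (SD, n = 3). The counts of *TPSB2* were 2.20, 2.36 and 2.35 times those of *TPSAB1*, although the total varied 10.7-fold between these libraries after normalization. Most stretches of 75 bases in both transcripts are shared, so this ratio depends on how shared reads were assigned. The intervals of the shares do not cover that assignment. In proliferating replicate 3, the share of *TPSB2* was 62.5% (38.6 to 81.5) of 16 counts, an interval that holds all the dormant values.

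**Figure D3:**
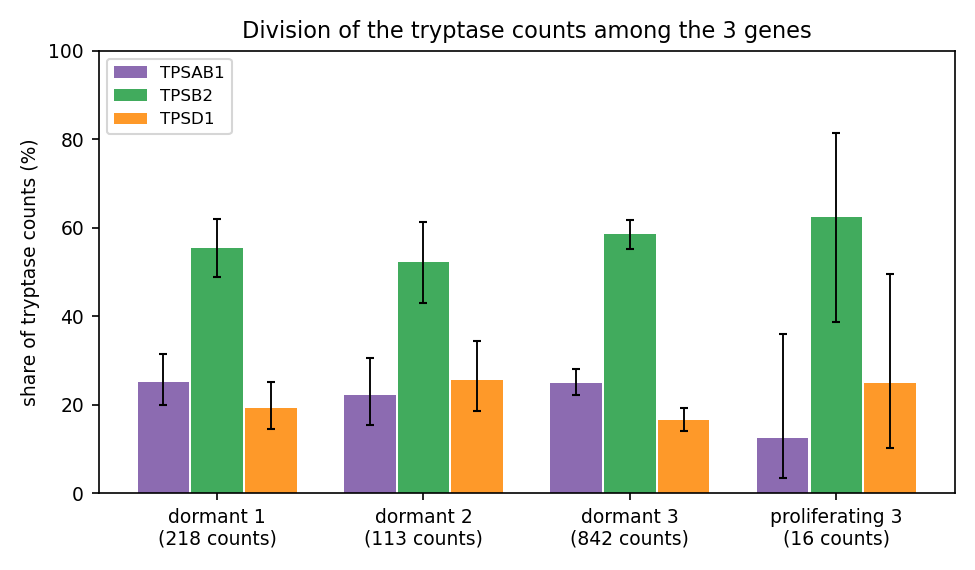
Bars show the share in percent of the tryptase counts that fell on each of the 3 genes in the 4 libraries with any such counts, and error bars are 95% Wilson intervals for counting error. *TPSB2* took the largest share in every one of these libraries, from 52.2% to 62.5%.

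Estimated counts of the tryptases were fractional, apart from those at 0 and that of *TPSB2* in dormant replicate 1. In the 4 libraries with tryptase counts, *TPSAB1* had estimated counts of 2.17, 55.25, 25.33 and 209.58, *TPSB2* of 9.67, 121, 59.33 and 492.83, and *TPSD1* of 4.17, 41.75, 29.33 and 139.08, for proliferating replicate 3 and dormant replicates 1, 2 and 3 in this order. Every one of these values was a multiple of 1/12 within 0.006. Summed over the 3 genes the counts were 16.01, 218, 113.99 and 841.49, so that in 3 of the 4 libraries the parts added up to a whole number within 0.033. The estimated counts of *LTC4S* were whole in every library. Its 3 counts above 0 were all even, and so were the 3 whole sums of the tryptases. Fractional counts were common in this table, where 49.1% of all values above 0 were not whole and 187 of the 1161 genes had no whole count above 0. Since the counting of reads that match several genes could split them, the values of *TPSAB1*, *TPSB2* and *TPSD1* are uncertain as separate levels.

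Per kb of the main annotated transcript, the dormant mean of the normalized read count was 244.0 ± 296.0 (SD, n = 3) for *TPSB2*, 104.7 ± 125.3 for *TPSAB1* and 55.1 ± 58.2 for *TPSD1*. These SDs are between libraries, and the genes were measured in the same libraries. *TPSB2* was highest per kb in each of the 3 dormant libraries, with 98.8, 48.6 and 584.6 in replicates 1, 2 and 3. *TPSAB1* had 44.9, 20.6 and 248.8 in the same libraries. The order of the others depended on the length: per kb of all annotated exons, *TPSD1* (17.6) was above *TPSAB1* (15.2) in dormant replicate 2, whereas per kb of the main transcript it was below (17.7 against 20.6). In proliferating cells, *LTC4S* stood at 79.0 ± 50.1 per kb (SD, n = 3). All 4 genes were low for this table. The mean normalized read count over the 6 libraries was 143 for *TPSB2*, 61.3 for *TPSAB1*, 43.8 for *TPSD1* and 31.6 for *LTC4S*, against a median of 2251 for the listed genes, and only 39 listed genes had a lower mean than *LTC4S*.

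*LTC4S* had the opposite pattern. Its normalized read count was 94.2, 77.6 and 17.9 in proliferating replicates 1, 2 and 3, from 130, 72 and 22 counts, and 0 in all 3 dormant libraries. The mean in proliferating cells was 63.2 ± 40.2 (SD, n = 3), at least 59.4-fold higher than in dormant cells when 3 counts over the dormant libraries are taken as the limit. This bound was 80.7 without proliferating replicate 3 and 37.2 or 37.4 without dormant replicate 1 or 2, where the limit is set by fewer libraries. *LTC4S* shared the absence from dormant cells with other genes, as 70 of the 1161 listed genes had no counts in any dormant library. Listed genes at 0 counts numbered 15, 25 and 8 in proliferating replicates 1, 2 and 3. In dormant replicates 1, 2 and 3 they numbered 115, 119 and 127. The paper reports dormant cells as a small fraction of the isolated cancer cells. The limit of 3 counts does not cover transcripts lost before sequencing, and such loss was not tested. The number of cells that held *LTC4S* mRNA and the amount per cell cannot be told apart in these bulk libraries, which holds for the tryptases as well. Proliferating replicate 3 held 9.42% of the summed proliferating level of *LTC4S*, against a median of 33.3% for the 585 genes lower in dormant cells, of which 22 had a smaller share. The proliferating library with the least *LTC4S* was thus the only one with tryptase counts, and both came from pool 3.

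By Pearson correlation of log2(normalized read count + 1) over the 6 libraries, the listed genes most like the summed tryptases were *C1QL3* (r = 0.99), *AC019117.3* (r = 0.99), *AC024337.2* (r = 0.99), *RASEF* (r = 0.99) and *VAX2* (r = 0.98). These correlations describe 6 points from libraries whose populations were already known to differ for every listed gene. *C1QL3*, which encodes a secreted C1q-like protein, had normalized read counts of 49.3, 35.6 and 100.8 in proliferating and 349.9, 220.8 and 540.1 in dormant cells. The genes most like *LTC4S* were *ANKRD55*, *ZSCAN26*, *LINC01561*, *SNORA3B* and *SMIM20*, of which *SMIM20* had the lowest r with 0.996. *ANKRD55* had 60.2, 48.5 and 13.0 in proliferating cells and 0 in every dormant library. With the cosine of the normalized read counts as the measure, none of the 5 genes nearest to the tryptases and 1 of the 5 nearest to *LTC4S* stayed among the nearest 5, so these names depend on the measure of likeness.

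**Figure D4:**
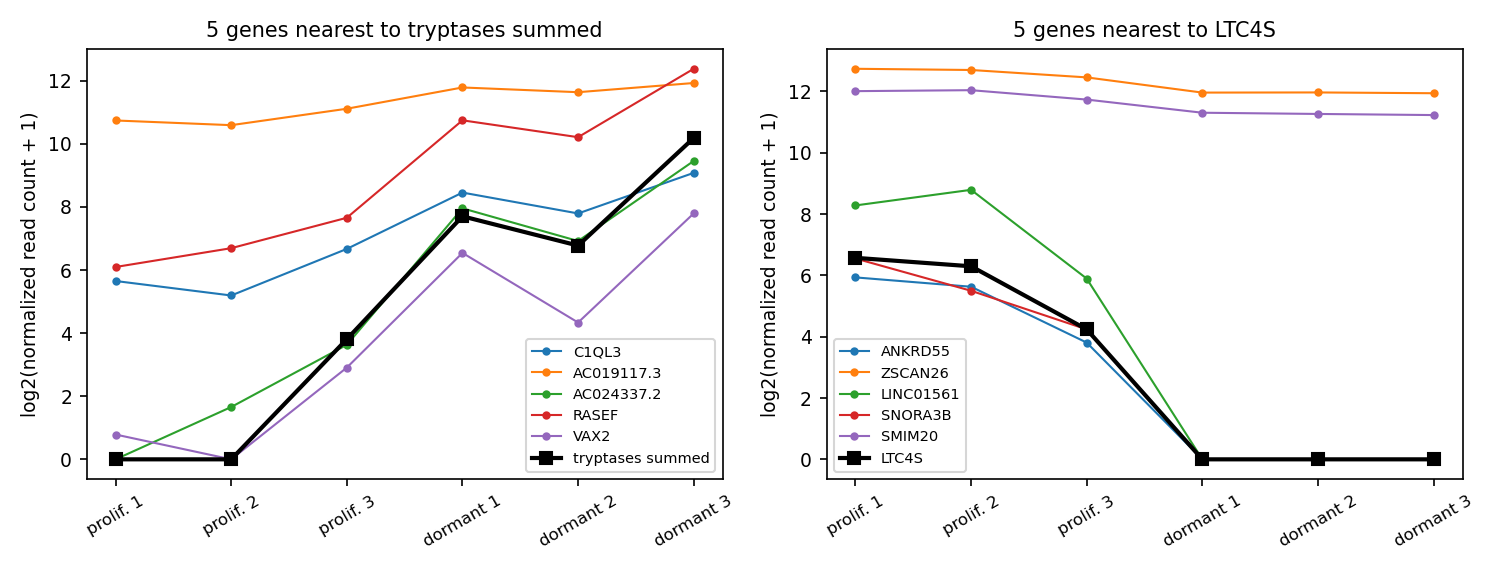
Lines show log2(normalized read count + 1) in the 6 libraries for the summed tryptases (left, black) and *LTC4S* (right, black) with the 5 genes of highest Pearson correlation in colour. The coloured lines lie higher or lower in the same population as the black line, while their levels and the sizes of their differences vary.

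Other genes of the same pathways were taken from lists of gene symbols. These genes were tested with edgeR (quasi-likelihood, with Benjamini-Hochberg adjustment over the whole table). Of the listed genes, 99.7% passed an adjusted p-value of 0.05, 49.6% higher and 50.0% lower in dormant cells, so that passing is the rule in this table. With the replicate number as a further term (replicate block) 94.5% passed, 46.9% higher and 47.6% lower. Of 34 mast cell and basophil genes, 5 were in the table; the rest, among them the mast cell markers *KIT*, *CPA3*, *MS4A2* and *HDC*, were not analysed here. Besides the 4 members, this was *MITF*, a transcription factor required for mast cell and melanocyte development. Its normalized read count was 1398, 2056 and 1368 in proliferating and 7402, 3497 and 3669 in dormant cells. *MITF* rose by 1.60 in log2 units (SE 0.35, adjusted p = 0.00578 by edgeR).

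Of 34 genes of the leukotriene and prostanoid pathway, 4 were in the table, all lower in dormant cells. Besides *LTC4S*, which stands on both lists, these were *LTA4H*, *TBXAS1* and *PTGES*. *LTA4H* encodes leukotriene A4 hydrolase, which turns the substrate of leukotriene C4 synthase into leukotriene B4 instead. Its normalized read count fell from 23036 ± 978 in proliferating to 13847 ± 2087 in dormant cells (SD, n = 3), a log2 fold change of -0.73 (SE 0.13). *PTGES*, which encodes a prostaglandin E synthase of the same enzyme family as LTC4S, had 7054, 3486 and 14148 in proliferating and 3266, 2358 and 1046 in dormant cells. Its log2 fold change of -1.89 (SE 0.58) no longer passed without proliferating replicate 3, where it was -1.24 (adjusted p = 0.0602 by edgeR). *TBXAS1*, which encodes thromboxane A synthase, changed by -0.67 in log2 units (SE 0.16).

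Of 37 genes of tryptase partners, related proteases and serine protease inhibitors, 7 were in the table, 6 of them lower and 1 higher in dormant cells. *F2RL1*, which encodes the tryptase-sensitive receptor PAR2, had normalized read counts of 11618, 12180 and 10738 in proliferating and 6320, 5854 and 5612 in dormant cells. It fell by 0.96 in log2 units (SE 0.13, adjusted p = 0.00322 by edgeR), opposite in direction to the tryptases. The direction of each, and the passing of *F2RL1*, come from the contrast by which the listed genes were called. Among the dormant libraries, *F2RL1* was highest in replicate 1, whereas the summed tryptases were highest in replicate 3. *SERPINA1*, which encodes the elastase inhibitor alpha-1-antitrypsin, fell by 1.84 (SE 0.29). *SERPINA3*, which encodes the chymotrypsin and chymase inhibitor alpha-1-antichymotrypsin, had 58.0, 78.7 and 229 in proliferating cells, and in dormant cells 0.951 in replicate 1 and 0 in the others. *SERPINB6*, *SERPINF1* and the urokinase gene *PLAU* had log2 fold changes of -0.53, -0.59 and -0.68, respectively. *SPINT1*, which encodes a Kunitz-type inhibitor of trypsin-like serine proteases, rose by 0.96 (SE 0.26), from 5158 ± 1810 to 10057 ± 684 (SD, n = 3). The same numbers of these genes passed with the replicate block.

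**Figure D5:**
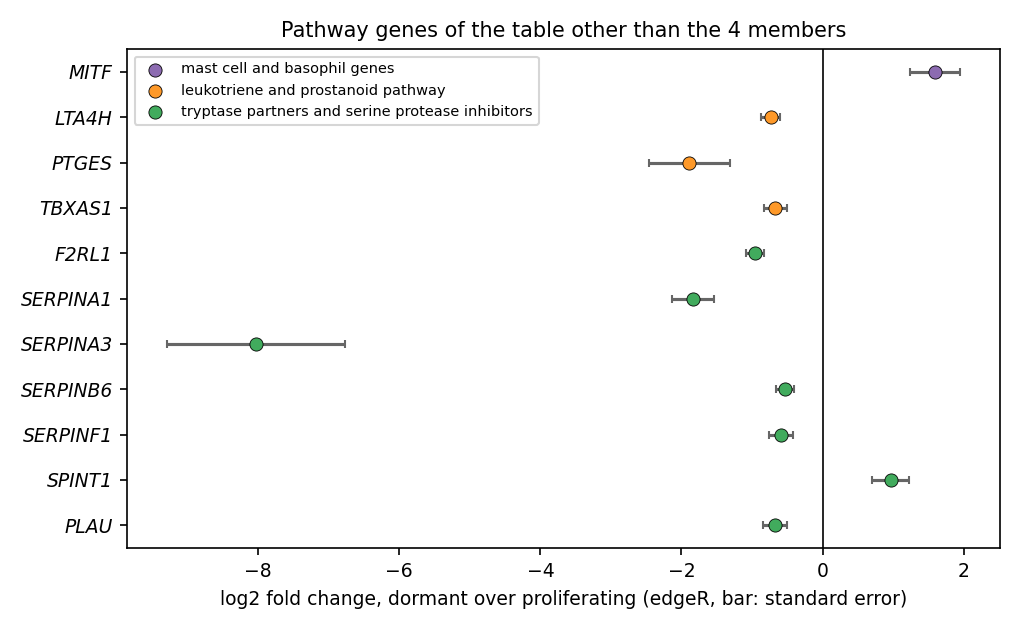
Points show the edgeR log2 fold change of dormant over proliferating cells. They cover the 11 genes of the table on the mast cell, leukotriene and protease lists other than the 4 members. Bars are standard errors derived from the quasi-likelihood F statistic. *MITF* and *SPINT1* lie right of 0 and the other genes lie left of it; the value of *SERPINA3* rests on a single dormant count.

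Near the members on the chromosomes, *MGAT4B* was the only listed gene whose start lay within 1 Mb of *LTC4S*. It encodes an N-acetylglucosaminyltransferase of N-glycan branching, lies on chromosome 5, minus strand, between 179797597 and 179806952, and ends 949 bases from the end of *LTC4S*. Its normalized read count was 1164, 313 and 583 in proliferating and 1933, 2746 and 2583 in dormant cells. The log2 fold change of *MGAT4B* was 1.82 (SE 0.49, adjusted p = 0.00914 by edgeR), opposite in direction to *LTC4S*, and 2.43 without proliferating replicate 1. As a listed gene, *MGAT4B* had been called on this contrast, so its direction and its passing are no independent results. Within 1 Mb of the tryptase genes, *PIGQ* and *FAM173A* were higher in dormant cells, with log2 fold changes of 1.14 and 2.11, and *TBL3* and *SLC9A3R2* were lower, with -0.77 and -0.82. None of these 4 genes lay closer than 506691 bases to a tryptase gene, counted between starts.

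Markers of other cell types in the table are described here without a test. Every listed gene had been called on this contrast, and by edgeR 49.6% were higher and 50.0% lower in dormant cells. That a listed marker differed is thus no result of its own. Of 12 fibroblast markers, 5 were in the table (*COL1A1*, *COL3A1*, *DCN*, *LUM* and *BGN*), and all were higher in dormant cells. Their summed normalized read count was 4107 to 7492 in proliferating and 46010 to 74506 in dormant libraries. The paper gives *BGN* as the most significantly changed gene of dormant cancer cells. It also reports rare GFP+ cells with biglycan protein in the brain. For 2 of 10 astrocyte markers the sum was 577 to 1339 and 3518 to 6961, and for 2 of 14 endothelial and mural markers it was 280 to 468 and 2879 to 5452. Of 25 microglia and macrophage markers, 4 were in the table. *CD4* was higher, whereas *ITGB2*, *LAPTM5* and *CD74* were lower in dormant cells, and the sum was 59892 to 120245 in proliferating and 37566 to 48171 in dormant libraries. Of 24 lymphocyte and granulocyte markers only *BANK1* was in the table, which was at 0 in every dormant library and summed to 220 to 660 in proliferating ones. None of the 15 oligodendrocyte and neuron or 10 erythroid and platelet markers was in the table. Of 15 genes of the carcinoma line, 7 were in the table and had a normalized read count of at least 16790 in every library, with sums of 642226 to 744666 in proliferating and 344060 to 452208 in dormant libraries. The part of other cells in the values of the tryptases and *LTC4S* was not tested.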

How the data were processed

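Gene expression was measured by paired-end mRNA sequencing of Smart-seq2 libraries, 3 of dormant and 3 of proliferating cells. After trimming (Cutadapt), the authors aligned the reads to joined human (GRCh38.p12) and mouse (GRCm38.p6) assemblies by STAR, counted human reads by Rsubread, multi-mapping ones too, and left out those placed on mouse chromosomes. The deposited estimated counts per gene are partly fractional and not normalized. The normalized read counts are signal values that the authors made by dividing rounded counts by a DESeq2 size factor per library. Recomputing them gave a largest difference of 5.00e-05. The deposited mean over libraries (a signal), fold change as a ratio, log2 fold change, standard error and statistic (score values), and p-values are the authors' own comparison and were not used. The table holds 1161 genes that the authors had called. The deposited counts of these genes summed to between 7978657 and 17928784 per library, which is not the depth.

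The members and the gene lists were chosen with earlier results of these data known. Estimated counts were rounded and tested with edgeR 4.0.16 (R 4.3.3) (quasi-likelihood), on size factors of 0.724 to 1.38 recovered from the authors' estimated and normalized counts, with population as the only term, two-sided, adjusted over the 1161 genes. Each SE given with an edgeR log2 fold change is that change without its sign, divided by the square root of the quasi-likelihood F statistic. DESeq2 1.42.0 and limma 3.58.1 were alternatives. The 4 members were part of the fit, but no p-value is given for them. Same-numbered libraries came from the same pool of mice, so the replicate number was added as a block in an alternative fit. Deviations from the group means of same-numbered libraries correlated by 0.06, -0.02 and 0.00 across genes, which are not independent replicates. Intervals (95%) and limits of 3 counts cover counting error only, with each count taken as independent. Coordinates and sequences are those of GENCODE release 44 (GRCh38), in which 1157 of the 1161 identifiers were found; the authors used an older release of the same assembly. The genes named were the members, every gene of the table on the mast cell, leukotriene and protease lists, the 5 nearest genes by correlation and the genes of the table within 1 Mb.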

Additional observations from a re-analysis of the deposited data

How the results depend on the processing

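Across the alternatives run for it, the summed tryptase level kept its direction, with log2 ratios from 5.19 (without dormant replicate 3) to 7.63 (pseudocount of 0.5), and leaving out 1 library at a time gave 5.19 to 7.30. Without proliferating replicate 3 no ratio could be formed. As the mean of the 3 pairs (replicate block), the log2 difference was 6.95 for the tryptases and -5.70 for *LTC4S*, at a pseudocount of 1. The bound for *LTC4S* was a log2 ratio of -5.89, and -6.33 to -5.22 with 1 library left out. The fitted log2 fold change of *LTC4S* was -9.07 by edgeR and -8.31 by DESeq2, values that depend on how the fit treats a group with no counts and are no bounds. The pooled share of *TPSB2* was 57.4%, and 54.4% to 57.9% with 1 dormant library left out. Of the 5 genes nearest to the tryptases, 0 were shared with the cosine and 1 with the Spearman measure, and for *LTC4S* 1 and 2 were shared. The Spearman counts depend on how ties are ordered, since 52 genes reached the fifth highest value for the tryptases, all 5 nearest by Pearson among them, and 18 genes tied at the highest value for *LTC4S*, with 2 of the 5 among them.

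The number of listed genes past the threshold was 1157, 1097 with the replicate block and 1089 to 1135 with 1 library left out. Median ratio size factors gave 931 (37.2% of them higher in dormant cells) and library totals 948 (60.8% higher), against 49.8% higher of the 1157, and the median log2 fold change of all listed genes moved from -0.33 to -0.91 and -0.04. These factors and totals were computed from the listed genes alone, nearly all of which differed between the populations. They do not show how scaling on all genes of the experiment would change the results. No gene named from the lists or the neighbourhood turned direction under these scalings. *SPINT1* and *PIGQ* did not pass with the median ratio, and *TBXAS1*, *SERPINB6*, *SERPINF1*, *KRT8*, *KRT18* and *CAV1* did not pass with library totals. The filter of 10 counts in 3 libraries removed no gene. The depth limits the tryptase ratios through 16 proliferating counts.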
